A study of Mus musculus with 4 samples.

Results

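Mouse primary osteoblasts that received LOXL2 with BMP2 were compared with cells that received LOXL2 without BMP2. The comparison rests on 2 of the 4 arrays of the study, 1 per treatment, chosen by the treatment named in the labels. The full design had 4 treatments of 72 h in 10% serum: neither protein, either protein, and both. Each of the cultures compared here received LOXL2 at 4 µg/ml, and one of them received BMP2 at 200 ng/ml as well. The labels call the cells of the LOXL2 culture pre-osteoblasts and those of the BMP2 plus LOXL2 culture osteoblasts, and the stated purpose was to find regulators of the differentiation that BMP2 induces. Whether separate preparations of cells were used is not stated. Of 55681 probes on the array, 35085 passed the scanner's test for signal over background on either array of the pair, and they represented 24703 genes. With 1 array per treatment no test was possible, so the check available was whether several probes of a gene differed in the same direction.

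BMP2 is a secreted ligand that binds type I and type II serine/threonine kinase receptors, which phosphorylate SMAD proteins that enter the nucleus with SMAD4. It was found through its power to form ectopic cartilage and bone, and it drives mesenchymal cells into the chondrocyte and osteoblast lineages. LOXL2 is a secreted copper amine oxidase that oxidises lysine residues in collagen and elastin, which starts their cross-linking.

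Depth differed little within the pair. Of the non-control spots, 62.2% were well above background on the LOXL2 array and 60.8% on the BMP2 plus LOXL2 array, and the 75th percentile of the processed signal was 723.7 and 742.9. No spot was saturated. Both arrays lay on 1 slide, and because each treatment occupied 1 position, position and treatment cannot be told apart. Defining osteoblast genes gave signal without BMP2 already: with LOXL2 alone the signal of Col1a1, the main collagen chain of bone, was 277970.0, that of Runx2, the transcription factor that specifies the lineage, 550.2, and that of Alpl, the phosphatase needed for mineralisation, 7164.

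With BMP2 in the presence of LOXL2, 876 genes were at least 2-fold higher (3.55% of the 24703) and 1123 were at least 2-fold lower (4.55%), or 8.09% either way. At 4-fold or more there were 311 genes higher and 350 lower, and at 16-fold or more 46 and 50. The median difference over all genes was 0.02 on the log2 scale and the median absolute difference 0.22. Differences were spread unevenly over the range of signal. In the dimmest quintile of genes, with a median signal of 24.9, 8.44% were 2-fold higher and 12.3% lower, against 1.40% and 1.13% in the brightest quintile, with a median signal of 14168. Genes below background on one array are counted here at their measured signal, although their fold is only a lower bound. They number 315 of the higher and 497 of the lower genes, and by the bound 171 and 210 of them reach 2-fold. Restricting the count to genes whose representing probe was well above background on both arrays left 553 higher and 623 lower.

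Spot error within an array was small beside a 2-fold difference for the median 10-spot probe, and larger for some dim ones. Of 306 probes printed on 10 spots each, the spots of the 2 arrays did not overlap for 162. At least 2-fold differences were found for 33 probes, and for 31 of these the spots did not overlap. Absence of overlap was thus common under 2-fold as well. The median standard deviation of a log2 difference between spots was 0.0961. Among the probes past 2-fold with overlap was Cap2, which read 22.1 and 7.93, a difference of -1.64 with a standard deviation of 0.762. Il4, also with overlap, read 11.5 and 23.7, a difference of 1.01 with a standard deviation of 0.509. Spread between cultures is not part of these values.

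**Figure D1:**
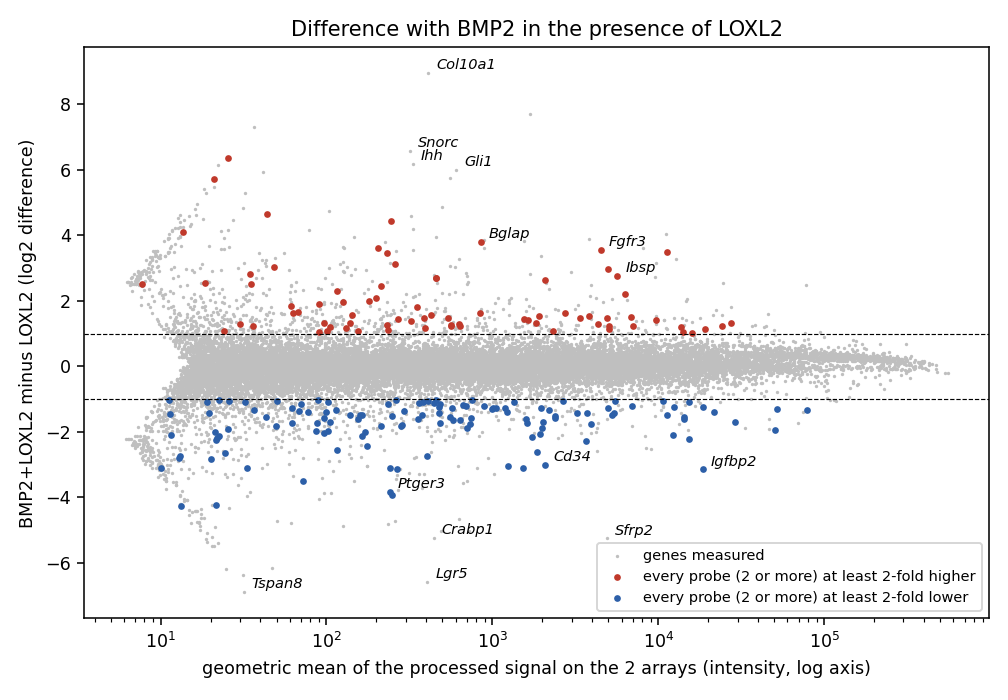
Log2 difference between the BMP2 plus LOXL2 array and the LOXL2 array (vertical axis) against the geometric mean of the processed signal on both (horizontal log axis) for 24703 genes. Coloured points are genes with at least 2 probes that all differed at least 2-fold, 77 higher and 128 lower; dashed lines mark 2-fold. Genes below background on one array are plotted at their measured signal, where the cloud is widest. Among the labelled genes above background on both arrays, Col10a1 (8.95) lies highest and Lgr5 (-6.58) lowest.

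Genes of bone matrix and mineralisation were more often higher than lower with BMP2. Of 21 measured, 9 were at least 2-fold higher and 1 lower, and the median difference was 0.56. Counts past 2-fold, here and in the lists below, stand beside 3.55% higher and 4.55% lower over all genes, whose median was 0.02. Panx3, a channel protein of maturing osteoblasts and chondrocytes, had a signal of 90.2 with LOXL2 and 2704 with BMP2 and LOXL2, a log2 difference of 4.87. Smpd3, a sphingomyelinase needed for skeletal mineralisation, read 64.4 and 1609, a difference of 4.61. These 2 had the largest differences of the list. Ibsp, which encodes bone sialoprotein, a matrix protein that binds hydroxyapatite, read 2139 and 14979, and its 2 probes gave 2.56 and 2.77. Alpl read 7164 and 30716, a difference of 2.06. Ifitm5, a membrane protein of mineralising osteoblasts, differed by 1.79, and Pth1r, the receptor of parathyroid hormone and PTHrP, by 1.26. Other members of the list differed little or the other way. Col1a1 differed by -0.09 and Spp1, the gene of osteopontin, by 0.56, while Mgp, an inhibitor of mineralisation, read 151640.0 and 77056, a difference of -1.01. The summed signal of the list was 1569190 with LOXL2 and 1513340 with BMP2 and LOXL2. Its largest parts were Sparc, at 563100 and 507640, and Col1a2, at 500540 and 455390, ahead of Col1a1 and Mgp.

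Osteocalcin, the vitamin K-dependent protein of bone matrix, is encoded in the mouse by neighbouring genes of near-identical sequence on chromosome 3. Their probes share bases, which are shown because the 3 readings may not be separate measurements. The probes of Bglap2 and Bglap3 both contain the stretch below, 23 bases long and 1 base apart (the capital), within mm9 positions chr3:88181822-88181881 and chr3:88172673-88172732 on the minus strand.
Bglap2: accagtatggcttGaagaccgcc
Bglap3: accagtatggcttAaagaccgcc
Bglap read 226 and 3209.8, a log2 difference of 3.79; its second probe was below background with LOXL2 and read 24.8 with both. Bglap2 read 2276 and 28852, a difference of 3.63. For Bglap3 the probe holding this stretch read 1687 and 19754, a difference of 3.51, and the other probe gave 3.50. How much each probe reads of its neighbours' transcripts was not tested.

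Of 17 osteoblast transcription factors measured, 5 were at least 2-fold higher and none was 2-fold lower, with a median difference of 0.43. Sp7, also called osterix and required for osteoblast formation downstream of Runx2, read 304 and 1449.7, a log2 difference of 2.21. The partners of beta-catenin were higher too: Lef1 read 89.9 and 502, with probes at 2.20 and 2.44, and Tcf7 read 94.9 and 416, with probes at 2.09 and 2.10. Mef2c differed by 1.58 and Dlx5, a homeobox factor induced by BMPs, by 1.44. Runx2 itself stayed below 2-fold on each of its 3 probes, at 0.09, 0.68 and 0.87. Among 10 genes of osteocytes, the cells embedded in bone, none was 2-fold higher. Dmp1 was below background with LOXL2 and read 21.6 with BMP2 and LOXL2. Kera, a keratan sulfate proteoglycan placed in that list, read 76.9 and 11.0, the latter below background, and was at least 5.39-fold lower.

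Cartilage matrix held the gene of the largest difference and the highest median of the lists. Of 24 such genes measured, 17 were at least 2-fold higher and 3 at least 2-fold lower, with a median log2 difference of 2.33 beside 0.02 over all genes, and their summed signal was 88095 with LOXL2 and 340860 with both proteins. Col10a1, the collagen that marks hypertrophic chondrocytes, read 18.2 with LOXL2 and 9265 with BMP2 and LOXL2, a difference of 8.95 on its single probe (mm9 chr10:34116831-34116890). Snorc, a small proteoglycan of cartilage, read 32.1 and 3165, a difference of 6.58. Both genes were near background with LOXL2 and bright with both proteins. Acan, which encodes aggrecan, the large proteoglycan that lets cartilage hold water, read 232 and 3449, a difference of 3.86. Hapln1, the link protein that fixes aggrecan to hyaluronan, differed by 2.83.

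The cartilage collagens were higher with the exception of Col11a1, at -0.33, and Col27a1, at 0.76, which stayed under 2-fold. Col2a1, the fibril collagen of cartilage, read 32418 and 185770.0, a difference of 2.48. Col11a2 differed by 3.84, and the chains of collagen IX, which coats the fibrils, differed by 3.90 for Col9a2, 3.27 for Col9a3 and 2.97 for Col9a1, whose second probe gave 1.78. Matrilins, which link collagen fibrils to proteoglycans, divided. Matn1 was below background with LOXL2 and at least 12.8-fold higher with BMP2, and Matn3 differed by 2.17, whereas Matn4 read 8668 and 3199.5, with both probes 2-fold lower (-1.70 and -1.48). Comp, a matrix protein of cartilage and tendon, read 9986 and 60489. Prg4, the lubricin gene of joint surfaces, differed by 2.16. Clec3a was below background with LOXL2 and read 66.2 with both. Lower beside Matn4 were Epyc, a leucine-rich proteoglycan of growth cartilage, at -1.26, and Cilp2 at -1.13.

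Of 13 chondrocyte transcription factors and signals, 6 were at least 2-fold higher and none 2-fold lower. Fgfr3, a receptor that restrains chondrocyte proliferation, read 1295 and 15761, and its probes gave 3.47 and 3.57. Foxa2, a forkhead factor of hypertrophic chondrocytes, was below background with LOXL2 on both probes and at least 11.7-fold higher with BMP2, while Foxa3 differed by 2.04. Scrg1 differed by 2.58 and Wwp2, a ubiquitin ligase whose intron holds a cartilage microRNA, by 1.48. Sox9, the factor that specifies chondrocytes, read 1701 and 2997, a difference of 0.78 that stayed under 2-fold. In RNA from a whole culture, more cells of one type and more RNA of a gene per cell cannot be told apart, here and below.

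Indian hedgehog, secreted by prehypertrophic chondrocytes, signals by binding Patched, which releases Smoothened and activates GLI factors; PTHrP acts back on this circuit. Of 14 hedgehog and PTHrP genes measured, 5 were at least 2-fold higher, none was 2-fold lower, and 1 of the 15 listed was below background on both arrays. The ligand Ihh read 38.2 and 2861, a log2 difference of 6.19. Gli1, both effector and target of the pathway, read 74.9 and 4907, 63.8-fold higher. The receptor Ptch1, itself a target, read 85.8 and 776, with probes at 2.80 and 3.14. Hhip, a decoy receptor and target, read 57.9 and 725, with probes at 2.95 and 3.61. The probe at 2.95 read 8.31 with LOXL2, under the lowest signal above background there, 12.9, so that difference has no measured size. Ligand, receptor, effector and inhibitor were thus all on the higher side, and Pthlh, which encodes PTHrP, differed by 1.59. The list's median was 0.14, and the other 9 members stayed under 2-fold, among them Dhh at -0.90.

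**Figure D2:**
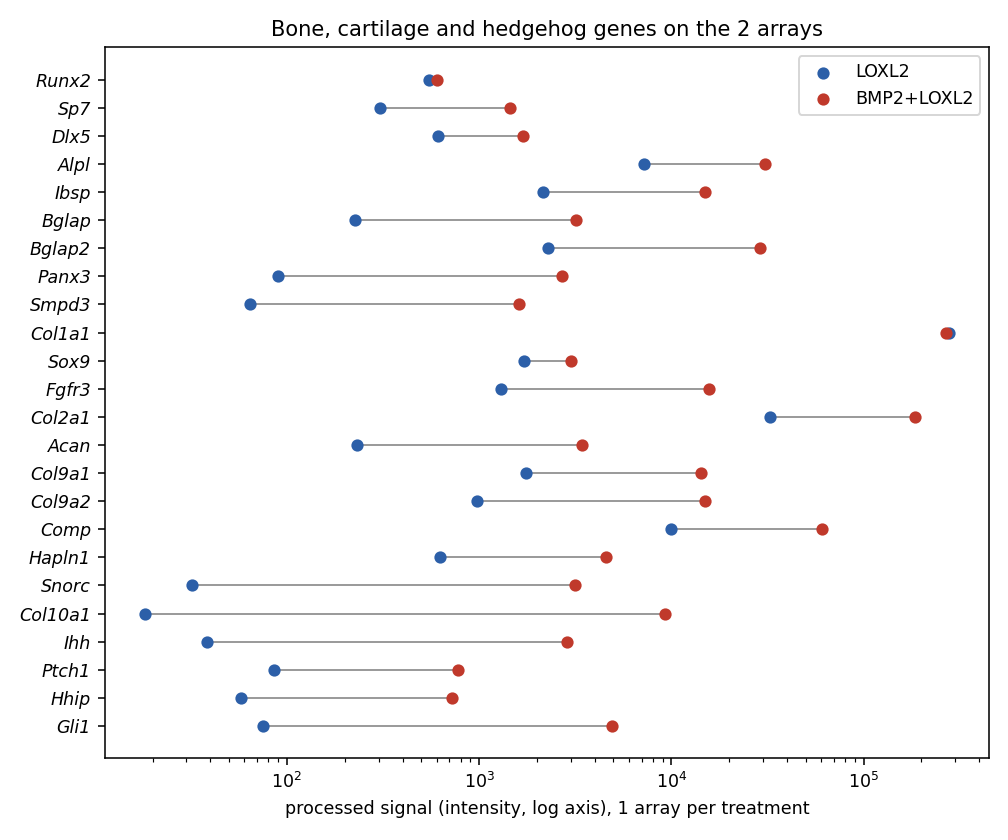
Processed signal (horizontal log axis, intensity) of 24 bone, cartilage and hedgehog genes on the LOXL2 array (blue) and the BMP2 plus LOXL2 array (red), 1 array each, by the representing probe. Lines join the values of a gene: Col10a1 runs from 18.2 to 9265 and Ihh from 38.2 to 2861, while Runx2 and Col1a1 nearly coincide.

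Among 24 measured genes of BMP-SMAD signalling, 5 were at least 2-fold higher and 1 lower, with a median difference of 0.19. Hey1, a Hairy-related repressor induced by BMPs, read 115 and 1828, a difference of 3.96. Secreted antagonists differed in direction: Chrdl2 read 36.5 and 580.1 and Grem1 865 and 5164, while Sostdc1, which binds BMPs and acts on the Wnt pathway, read 238 and 21.7, with probes at -3.50 and -2.86. Noggin (Nog) differed by 0.44 and follistatin (Fst) by -0.99. The intracellular inhibitor Smad6 read 1361 and 3285, a difference of 1.23, Smad9, one of the SMADs of the BMP branch, differed by 1.28, and Smad7 by 0.62. The immediate BMP targets of the ID family stayed under 2-fold after 72 h, at 0.92 for Id1, 0.27 for Id2, 0.44 for Id3 and -0.81 for Id4. Msx2 differed by -0.32.

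Of 22 ligand and receptor genes, 1 was 2-fold higher and 3 were 2-fold lower. Bmp4, a close relative of BMP2, read 21166 and 3814, a difference of -2.51. Gdf6 read 254 with LOXL2, was below background with BMP2, and was at least 17.8-fold lower. Bmp3, which opposes BMP signalling in bone, differed by -1.25. Bmp2's own transcript read 197 and 295, a difference of 0.55. Gdf5, a ligand of joint formation, was higher by 1.73 on one probe and 0.62 on the other.

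Wnt ligands act through Frizzled receptors and LRP co-receptors to stabilise beta-catenin, with LGR receptors raising the response and secreted SFRP, DKK and WIF1 proteins limiting it. Of 32 genes measured, 6 were at least 2-fold higher and 7 lower, 1 more was below background on both arrays, and members of the same role differed in opposite directions. Among ligands, Wnt4 read 176 and 1184, with probes at 2.08 and 2.72, and Wnt10b differed by 1.34, whereas Wnt2 read 52.2 and was below background with BMP2. Wnt5a differed by -0.78. Among receptors, Lgr5 read 3923 with LOXL2 and 42.0 with both, a difference of -6.58, and its relative Lgr6 was below background with LOXL2 and at least 17.8-fold higher; both of its probes were below background with LOXL2. Lgr4 differed by 1.02 and Fzd2 by -1.20, on probes of -1.20 and -1.17. Inhibitors divided as widely: Wif1 read 2714 and 45553, a difference of 4.03, and Sfrp4 differed by 1.01, but Sfrp2 read 30087 and 809, a difference of -5.25, Sfrp1 differed by -2.18 and Dkk2 by -1.68. The feedback targets Nkd2 and Axin2 differed by -1.01 and -0.65, the latter with a second probe at 0.07.

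In the Notch pathway, 10 of 13 listed genes were measured, 2 were 2-fold higher at their measured signal and none lower. Heyl and Jag2, these 2, were below background with LOXL2 and read 47.5 and 20.6 with BMP2 added, at least 3.59-fold and 1.56-fold higher, so the bound of Jag2 falls short of 2-fold. Hes1 differed by 0.99 and the ligand Jag1 by 0.76.

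Carriers of insulin-like growth factors differed both ways. Of 25 FGF and IGF genes measured, none was 2-fold higher and 5 were 2-fold lower, while 13 differed above 0 and 12 below. Igfbp2, a secreted carrier of IGFs, read 54595 and 6325, with probes at -3.27 and -3.15. Igfbp3 read 3476 and 437, with probes at -3.03 and -2.97, and Igfbp4 differed by -1.19, while Igfbp5, Igfbp6 and Igfbp7 differed by 0.69, 0.72 and 0.61. The probes of Igfbp2 nearly coincided. The Igfbp3 probe at -2.97 read 8.18 with both, under the lowest signal above background there, 14.6, so that difference has no measured size. Igf1 was measured by 5 probes, and the one that represents it, at mm9 chr10:87378456-87378515, gave -0.34; the other 4, between chr10:87393561 and chr10:87399640, gave -2.06, -3.03, -3.12 and -3.42. Of these 4, the brightest read 8298 with LOXL2 and 795 with BMP2 and LOXL2. Those giving -3.03 and -3.12, at chr10:87393561-87393620 and chr10:87393581-87393640, overlap in position and may not be separate measurements. The representing probe thus stood apart from the others of its gene, and Igf1 is not among the 5 counted lower. Fgf9 differed by -3.03, and Fgf18, a growth factor of bone and cartilage, by -1.51 and -1.01 on its probes.

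Contractile and TGF-beta genes were also on the lower side, 6 of 21 at least 2-fold and 2 higher, with a median of -0.77. Acta2, smooth muscle actin, read 167060.0 and 82790.0, a difference of -1.05 with a spot standard deviation of 0.0574. Tagln differed by -1.03 and Cnn1, calponin, by -1.22. Tpm1 was measured by 6 probes that ranged from -1.57 to -0.02. Ligands of the TGF-beta family parted: Tgfb1 read 477 and 1367, a difference of 1.48, and Tgfb3 read 18577 and 8882, a difference of -1.10, each on 10-spot probes whose spots did not overlap. The receptor Tgfbr2 differed by -1.24 and -1.10 on its probes, and Tgfbi, a matrix protein induced by TGF-beta, read 7225 and 29482. Acta2 and Tagln passed under 2-fold when arrays were centred on the median.

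Of 25 non-collagen matrix genes, 11 were 2-fold lower and 2 higher, with a median of -0.68. The fibrillins Fbn2 and Fbn1, which form microfibrils, differed by -2.11 and -1.17; Fbn2 read 25183 and 5988. The microfibril-associated Mfap4 and Mfap5 differed by -1.92 and -1.20, and the fibulins Fbln1, Fbln5 and Fbln2 by -1.75, -1.59 and -0.06. Eln, elastin, differed by -0.68. Nid1 and Nid2, which bridge laminin and collagen IV in basement membranes, differed by -1.25 and -1.65. Thbs1, an adhesive glycoprotein, read 124850.0 and 38368. Egfl6 was below background with BMP2 and at least 27.6-fold lower. Higher were the laminin chain Lama4, at 1.56, and tenascin-N (Tnn), at 1.24; Fn1, fibronectin, differed by 0.14. Among 21 other collagens, Col5a3, Col22a1 and Col18a1 were higher, at 2.10, 1.45 and 1.20, and Col8a1 lower, at -2.49. Col3a1 differed by 0.21, and of 10 small leucine-rich proteoglycans 2, Podn and Optc, were 2-fold lower.

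Of 21 lysyl oxidases and enzymes of collagen processing measured, 3 were 2-fold higher and 2 lower. The prolyl and lysyl hydroxylases P3h2, P4ha2 and Plod2 were higher, at 2.37, 1.28 and 1.09, while P3h1 and P4ha3 differed by 0.14 and -0.39. Lox, the founding lysyl oxidase, read 21945 and 10562, with probes at -1.15 and -1.09, and Adamts2, which cleaves procollagen, differed by -1.01. Endogenous Loxl2 transcript read 17682 and 15549 on its brightest probe, and its 3 probes lay between -0.55 and -0.22; the protein that was added is not measured by the array. Loxl1, Loxl3 and Loxl4 differed by -0.49, 0.06 and 0.40. Of 19 matrix proteases and inhibitors measured, Timp3 and Mmp11 were higher, at 1.57 and 1.31, while Mmp3, stromelysin, read 1127 and 265, and the aggrecan-cleaving Adamts5 differed by -1.61 and -1.58 on its probes. Mmp13, the collagenase of hypertrophic cartilage and bone, differed by -0.86. None of 20 integrins and cadherins was 2-fold higher, and 16 were below 0, with a median of -0.31 beside 0.02 over all genes. Itga8 read 2428 and 361, a difference of -2.79.

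Genes that respond to low oxygen, and glycolytic enzymes, were higher nearly throughout. Of 23 measured, 22 differed above 0, 10 were at least 2-fold higher and 1 lower, with a median of 0.83 beside 0.02 over all genes. Their summed signal was 1273910 with LOXL2 and 1882860 with both. Ndrg1, a hypoxia-induced cytoplasmic protein, read 12036 and 40654, a difference of 1.72. Vegfa, the growth factor of blood vessels, read 1993 and 5711, with probes at 1.41 and 1.48. The glucose transporter Slc2a1 differed by 1.47, the pH-regulating enzyme Car9 by 1.43 and the lactate exporter Slc16a3 by 1.20 and 1.24 on its probes. The oxygen sensor Egln3 gave 1.15 and 1.18. Glycolytic enzymes followed, with Aldoc at 1.41, Pfkp at 1.13, Pgk1 at 1.04 and Eno2 at 1.04. Pfkp had a second probe at 0.21, and Pgk1 and Eno2 passed under 2-fold under quantile normalization. Adm, adrenomedullin, went the other way, reading 2658 and 1273.

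A core that hypoxia-inducible factors recognise, ACGTG, was searched on both strands (CACGT on the other) in the 250 bases before each RefSeq start of GRCm38.p6. Other forms of the core were not searched. The windows of 4 higher genes that have 1 listed start and hold the core are shown, read along the gene's own strand, because these genes differed in the same direction; capitals mark the core.
Slc2a1 (chr4:119108495-119108744, plus strand): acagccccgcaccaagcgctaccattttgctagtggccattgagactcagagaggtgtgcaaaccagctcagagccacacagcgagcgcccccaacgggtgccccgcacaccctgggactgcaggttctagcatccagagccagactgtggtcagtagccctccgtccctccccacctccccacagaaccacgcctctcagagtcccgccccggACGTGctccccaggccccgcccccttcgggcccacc
Car9 (chr4:43506776-43507025, plus strand): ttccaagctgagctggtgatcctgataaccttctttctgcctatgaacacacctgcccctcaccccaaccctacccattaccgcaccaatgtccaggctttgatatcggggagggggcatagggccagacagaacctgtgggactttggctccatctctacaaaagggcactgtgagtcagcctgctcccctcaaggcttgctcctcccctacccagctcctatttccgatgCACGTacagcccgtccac
Slc16a3 (chr11:120948817-120949066, plus strand): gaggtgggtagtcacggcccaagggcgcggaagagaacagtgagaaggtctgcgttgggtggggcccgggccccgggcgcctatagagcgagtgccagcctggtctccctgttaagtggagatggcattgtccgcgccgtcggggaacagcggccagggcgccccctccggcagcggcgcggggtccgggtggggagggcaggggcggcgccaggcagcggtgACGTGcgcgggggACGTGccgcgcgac
Egln3 (chr12:54203875-54204124, minus strand): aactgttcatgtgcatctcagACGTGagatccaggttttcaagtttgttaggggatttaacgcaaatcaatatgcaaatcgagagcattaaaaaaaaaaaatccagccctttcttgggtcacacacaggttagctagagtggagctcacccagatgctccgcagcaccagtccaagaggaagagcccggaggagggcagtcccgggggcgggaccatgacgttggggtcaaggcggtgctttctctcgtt
The core stood in 16.6% of 32851 windows, or in at least 1 window of 18.5% of genes. Of the 22 hypoxia and glycolysis genes with a window, 12 held it. Among those at least 2-fold higher it was in 6 of 9, and among the other genes of the list in 6 of 13. A match of letters is a description and not a site of binding. The 9 letters GACCACCCA that GLI factors recognise, on both strands, stood in 0.225% of windows, or in at least 1 window of 0.255% of genes, and in none of the 11 hedgehog and PTHrP genes with a window. The letters GGCGCC, bound by SMAD1 and SMAD5, stood in 9.59% of windows, or in at least 1 window of 10.8% of genes, and in those of 6 of 14 BMP-SMAD genes: 2 of 3 that were 2-fold higher and 4 of 11 others. None of these motifs contains another.

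Other lists of cell state showed fewer differences. Of 23 genes of the amino acid and unfolded protein responses, 21 differed above 0, with a median of 0.40 beside 0.02 over all genes. In this list 4 were 2-fold higher. They were Trib3, a pseudokinase induced by ATF4, at 1.59, the stress factor Atf3 at 1.46, the transporter subunit Slc3a2 at 1.03 and the disulfide isomerase Pdia4 at 1.01. Of 29 cell cycle genes, 24 differed below 0, with a median of -0.31 beside 0.02 over all genes. Only Cdkn1c passed 2-fold, on the lower side, which is 3.45% of the list beside 4.55% of all genes. That gene encodes an inhibitor of the cycle and read 79715 and 26894. Mki67, a marker of dividing cells, gave -0.54 and -0.53. Among 20 genes of mitochondrial respiration, Ppargc1a alone was 2-fold higher, at 1.12 on both probes, which is 5% of the list beside 3.55% of all genes. None of 18 sterol and fatty acid genes passed 2-fold in either direction. Of 15 stress genes, the small heat shock protein Cryab was 2-fold lower, at -1.60 and -1.55. Of 13 reference genes 12 stayed under 2-fold, and Tfrc, the transferrin receptor, gave 1.17, its 3 probes lying between 0.79 and 2.84.

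Chemokines, acute phase and complement genes were lower more often than higher, 10 against 3 of 25 measured, with a median of -0.59; Cxcl9, 1 of the 10, was below background with both and at least 1.64-fold lower. Il33, an alarmin cytokine of stromal cells, read 363 and 22.3, a difference of -4.06. Its receptor gene Il1rl1 read 4516 and 759.8, and its 3 probes lay between -2.85 and -2.35. The probe at -2.85 read 6.77 with both, under the lowest signal above background there, 14.6, so that value has no measured size. Ligand and receptor were thus on the same side. Complement factor B (Cfb) differed by -2.42, Ccl9 by -1.66 and Cxcl12, which retains blood progenitors in marrow, by -2.19 and -1.43 on its probes. The acute phase genes Orm1, Saa3 and Hp were higher; Saa3 read 69.3 and 204, and Orm1 was below background with LOXL2. Of 24 interferon response genes none was 2-fold higher, and Mx1, Cxcl10 and Gbp2 were lower, at -2.48, -1.87 and -1.08; without LOXL2 the first pair differed above 0, by 0.43 and 0.92. Their median was 0.07, and it passed to -0.001 under quantile normalization. For osteoclast regulators, Tnfsf11, the gene of RANKL, differed by 0.86, its decoy receptor Tnfrsf11b by 0.23, Sema4d by 1.14 and Sema3a by -2.03 and -0.95 on its probes.

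Carriers of retinoids and prostaglandin genes differed both ways, 5 of 21 at least 2-fold higher and 5 lower. Stra6, 1 of the 5 higher, was below background with LOXL2 and at least 1.97-fold higher. Crabp1, which binds retinoic acid in the cytoplasm, read 2698 and 73.4, a difference of -5.24. Ptgds, prostaglandin D synthase, read 4069 and 128, a difference of -5.03. Aldh1a1, which makes retinoic acid, differed by -2.10, but Aldh1a3, an enzyme of the same step, by 2.95. Ptgs2, inducible cyclooxygenase, read 934 and 2499, a difference of 1.38 with a spot standard deviation of 0.0995. The prostaglandin receptors Ptger2 and Ptger3 were opposed: Ptger2 read 226 and 1106, and Ptger3 898 and 64.2, with probes at -3.84 and -2.11. Of 27 guidance genes, the netrin receptor Unc5b and the semaphorin receptor Plxnd1 were higher, at 1.83 and 1.25, and 5 were lower, led by Sema3d at -1.51, Sema3f at -1.36 and Slit2 at -1.34.

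Markers of other cell types that a primary culture may hold were read beside these results. Of 16 tendon and fibroblast markers 15 were measured, 6 were 2-fold lower and none higher, and their summed signal was 285955 with LOXL2 and 235973 with both. Tnmd, tenomodulin, read 8273 and 2117, 4.01-fold lower, with a spot standard deviation of 0.082 for the log2 difference. Cd34, a surface protein of stromal progenitors, read 5804 and 744, with probes at -3.37 and -3.00. The Cd34 probe at -3.37 read 5.73 with both, under the lowest signal above background there, 14.6, so that value has no measured size. Scx, the tendon transcription factor, differed by -0.90. For leukocytes, 19 of 20 markers were measured, all 19 differed below 0 and 4 were 2-fold lower. Their median was -0.67 beside 0.02 over all genes, and their summed signal was 33107 and 26501. Ptprc, which all leukocytes carry, read 21.1 with LOXL2 and was below background with both, and Ms4a1 was below background on both. For skeletal muscle, 15 of 18 were measured and 6 were 2-fold lower, with sums of 25360 and 10611. The myosin genes Myh1, Myh2, Myh4 and Myh8, neighbours of similar sequence on chromosome 11, were all lower: Myh1 by -5.04, Myh8 by -4.66 with 3 probes from -4.66 to -0.72, and Myh2 and Myh4, below background with BMP2, at least 4.98-fold and 4.99-fold. Pax7, also counted, was below background with BMP2 and at least 1.53-fold lower. Of the 15 muscle markers measured, 3 differed above 0 and 12 below. The muscle regulator Myod1 differed by -0.08, and Myf5 and Ckm were below background on both arrays. Myog, another muscle regulator, read 21.4 and 37.8, a difference of 0.78 with spots that overlapped.

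Of 13 adipocyte markers 10 were measured, 3 were 2-fold higher and none lower, with sums of 26577 and 44738. Plin4 read 1362 and 4579.6; Trarg1 and Adipoq were below background with LOXL2, while the adipocyte regulator Pparg differed by 0.06 and Lep was below background on both. Of 11 endothelial markers 8 were measured, 1 was higher and 2 lower, Tek among them by a bound of at least 1.45-fold, with sums of 24608 and 25300, and Tie1, Emcn and Cldn5 were below background on both. Osteoclast markers numbered 6 measured of 8, with Atp6v0d2 higher at 1.56, Calcr and Dcstamp below background on both, and sums of 69607 and 93204. Of 10 nerve and glia markers 9 were measured, with 1 higher, S100b, which chondrocytes also express, and 1 lower, and sums of 6143 and 13629. Of 9 epithelial markers 7 were measured with 2 lower, and sums of 781 and 511. Of 5 erythroid markers 2 were measured, with sums of 73.0 and 85.3. The part of these cell types in the results above was not tested.

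Agreement among probes was the check on single genes. Of 24703 genes, 6962 had at least 2 probes above background on one of the arrays. Every probe was at least 2-fold higher for 77 of them (1.11%) and at least 2-fold lower for 128 (1.84%). By the representing probe alone 151 and 205 of these genes passed 2-fold, so all probes did so for 51.0% and 62.4%. Another 18 and 14 of them had a probe of the opposite sign. Probes below background on both arrays were left out of these counts, and a probe above background on 1 array was kept. With only probes above background on both arrays kept, every probe was 2-fold higher in 57 genes and lower in 88. The widest agreement on the higher side was in Ncmap, a myelin-associated membrane protein, which read 52.1 and 1151, with probes at 4.36 and 4.43. Trpv4, a calcium channel of chondrocytes, gave 2.51 and 2.64, and the coregulator Nrip2 2.55 and 2.69. On the lower side Bend5 read 965 and 64.4, with probes at -4.71 and -3.94, Wfdc2 gave -3.12 and -2.85, and the flavin monooxygenase Fmo1 -3.10 and -2.68. Itln1, a lectin, lay between -3.29 and -3.02 over 3 probes, 1 of which has no listed position. Those placed, at chr1:173448282-173448341 and chr1:173448254-173448313, overlap and may not be separate measurements. Mfap2, a microfibril component, gave -2.20 and -2.01. Ifitm1, an interferon-induced membrane gene, gave -2.29 and -2.22, but the files place its probes on chromosomes 7 and 8, so these are not 2 probes of 1 locus. In 12 genes probes differed 2-fold in opposite directions; the only one of these with a symbol was Celf5, an RNA-binding protein, with probes at 0.39, 1.54 and -1.49.

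**Figure D3:**
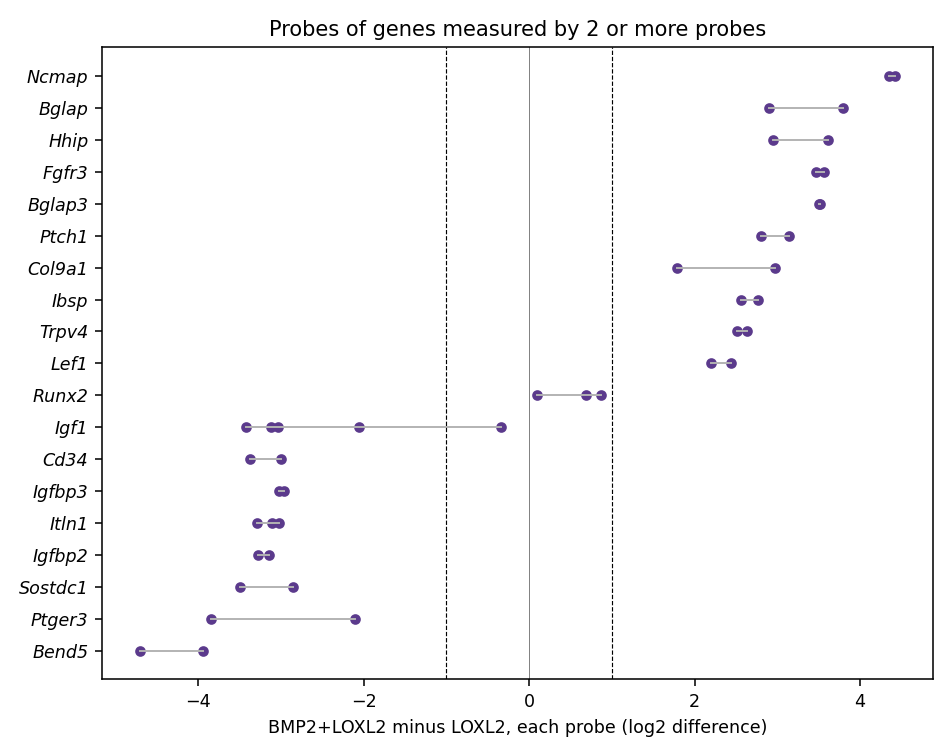
Log2 difference between the BMP2 plus LOXL2 array and the LOXL2 array for each probe (points) of 19 genes with at least 2 probes; lines span the probes of a gene and dashed lines mark 2-fold. The probes of Bglap3 and Fgfr3 nearly coincide, and those of Runx2 stay under 2-fold. The lower probe of Bglap was below background with LOXL2. The probes of Hhip at 2.95, Cd34 at -3.37 and Igfbp3 at -2.97 read under the lowest signal above background on 1 array. For Igf1, 1 of the 5 probes lies at -0.34 while the others lie at or below -2.06.

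For genes seen on 1 array of the pair only, the fold is given as a lower bound. It is set by the lowest signal above background on the dim array (12.9 with LOXL2, 14.6 with both), or by the probe's own signal where higher. The bound is approximate, because some brighter probes were called below background, such as that of Bmp8b at 18.4 with both. Of the genes 2-fold higher, 315 were below background with LOXL2, and of those lower, 497 were below background with BMP2. After Ppp1r1c, an inhibitor of protein phosphatase 1 detected on no other array of the 4, at no less than 35.4-fold, the largest bounds on the higher side were at least 24.9-fold for the protease inhibitor Spink5, 17.8-fold for Lgr6, 17-fold for Fam89a, 15.5-fold for Slc10a4 and 14.2-fold for the inositol phosphatase Inpp5j. On the lower side they were at least 27.6-fold for Egfl6, 24-fold for the tetraspanin Tspan8, 22.2-fold for Itih5, 19.8-fold for Serpina5, also below background on the untreated array, 17.8-fold for Gdf6 and 14.7-fold for the neuropeptide gene Vip. Single-probe genes above background on both arrays included Meltf, a transferrin relative that read 74.9 and 4164, and the carboxypeptidase Cpb1, which read 673 and 23.4.

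**Figure D4:**
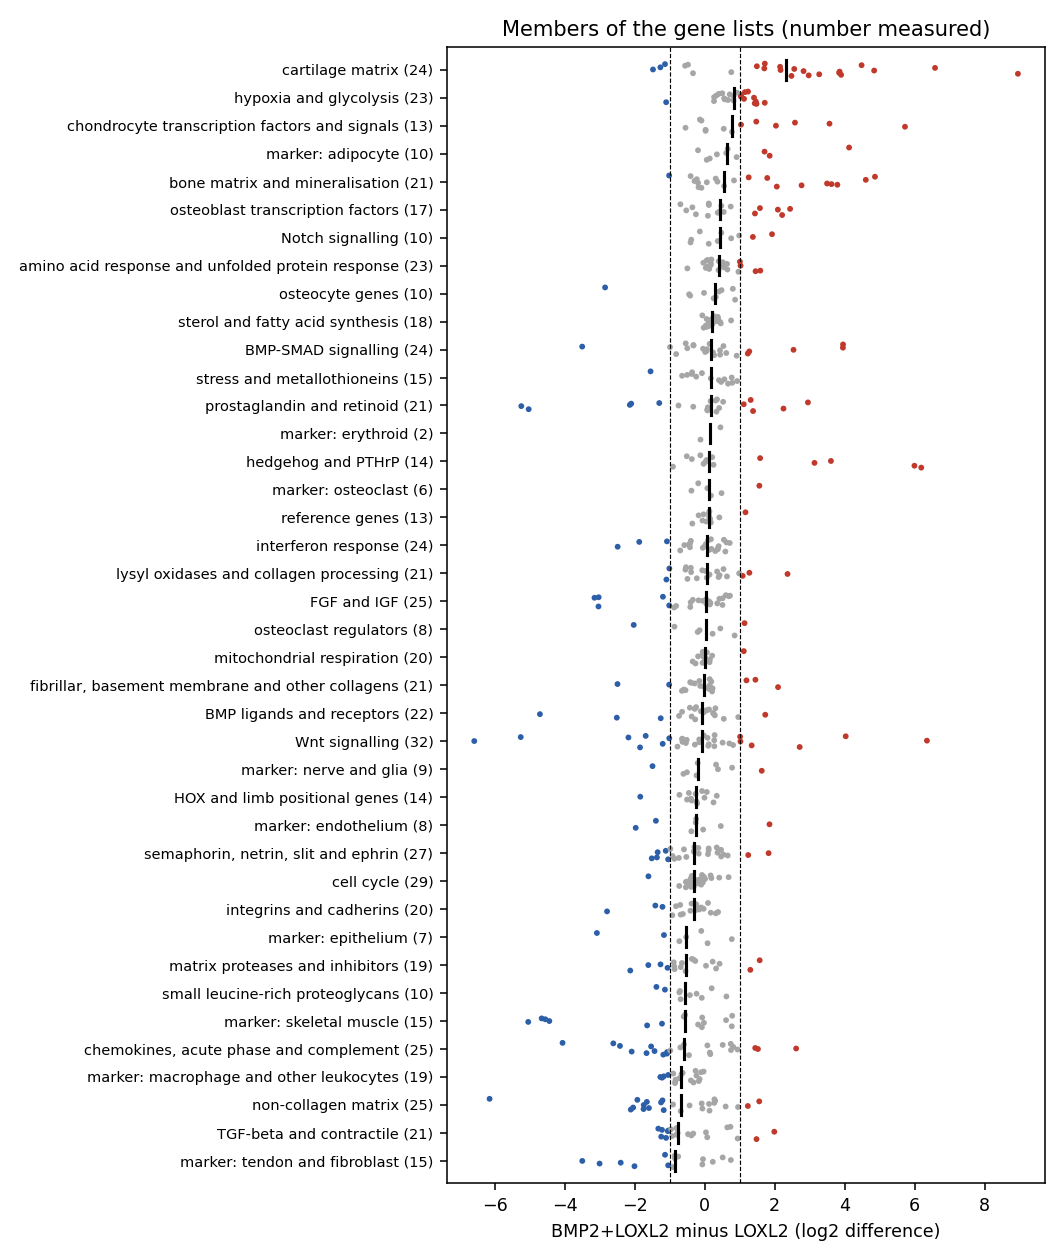
Log2 difference between the BMP2 plus LOXL2 array and the LOXL2 array for the measured members of 40 gene lists (points; red at least 2-fold higher, blue at least 2-fold lower), with each list's median as a black bar and the number measured in parentheses. Cartilage matrix has the highest median, 2.33, and tendon and fibroblast markers the lowest, -0.85.

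Altogether 754 genes were listed, 752 had a probe and 700 were measured on this pair. The lists with the highest medians were cartilage matrix (2.33), hypoxia and glycolysis (0.83) and chondrocyte transcription factors (0.78); those with the lowest were tendon and fibroblast markers (-0.85), TGF-beta and contractile genes (-0.77) and non-collagen matrix (-0.68). Of 28 HOX and limb positional genes, 14 were below background on both arrays, and of the 14 measured only Pitx1 passed 2-fold at its measured signal; it was below background with BMP2 and at least 1.12-fold lower.

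The same BMP2 treatment without LOXL2 was read on the other two arrays of the slide, BMP2 against untreated. There 3.07% of the 24703 genes were at least 2-fold higher and 3.9% lower. These genes were kept for their signal on the LOXL2 pair, which leaves out genes seen without LOXL2 only; kept by the signal on their own pair, a choice made after seeing the data, 24490 genes were measured, of which 3.47% were higher and 4.59% lower. Among the genes kept on the LOXL2 pair, every probe was 2-fold higher in 79 genes and lower in 111. Of these, 61 and 93 were the same genes as under LOXL2, which is 79.2% and 72.7% of the genes under LOXL2 and 77.2% and 83.8% of those without it. The difference under LOXL2 was the more positive in 50.6% of genes, with a median excess of 0.002, as centring each array on its own percentile favours. No array is shared by the 2 pairs, and no test of the difference between them was possible.

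In 23 of 24 cartilage matrix genes the value under LOXL2 was the more positive one, by a median of 0.60. Of these genes Col10a1, Matn1, Matn3 and Clec3a were below background on the untreated array, so their difference without LOXL2 has no exact size. Snorc differed by 6.58 under LOXL2 and 5.15 without it, Acan by 3.86 and 3.22, and Col2a1 by 2.48 and 2.10. On the BMP2 array without LOXL2 the signal of Col10a1, below background untreated, was 3386 and that of Snorc 1360.4. Ihh differed by 6.19 and 5.58, and Bglap2 by 3.63 and 3.32. Hypoxia and glycolysis genes were alike in the pairs, with medians of 0.83 and 0.96. Interferon response genes went the other way from cartilage: in 0 of 24 was the value under LOXL2 the more positive, and their medians were 0.07 and 0.54. Ifi44 differed by 0.62 under LOXL2 and 1.41 without it; its signal was 983 untreated, 1703 with LOXL2, 2661 with BMP2 and 2694 with both, so that the arrays with BMP2 read nearly the same and the untreated array lowest. Isg15, a ubiquitin-like protein, read 35428, 50483, 55965 and 59265 in that order.

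Among genes with several probes, every probe showed a difference between the pairs of at least 1 log2 unit in 5 genes, and of at most -1 in 5 (0.0718% each). Of those above, 4 have symbols. Fam89a, below background on both arrays without BMP2, read 86.3 with BMP2 and 225 with both proteins. F5, coagulation factor V, below background untreated, read 39.1 and 92.9 on the same arrays. The second probes of Fam89a and F5 were kept by their signal with both proteins. That of Fam89a read 3.44 with LOXL2 and 38.1 with both, and that of F5 3.37 and 33.5. The LOXL2 signals lie under the lowest above background there, 12.9, so these differences have no measured size. Without LOXL2 the same probes differed by 0.82 and 0.11. Zim1, an imprinted zinc finger gene, differed by -0.43 under LOXL2 and -1.97 without it. Fam227b was above background with both proteins only, at a signal of 18.7. The 5 below have identifiers of long intergenic noncoding RNA probes only.

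**Figure D5:**
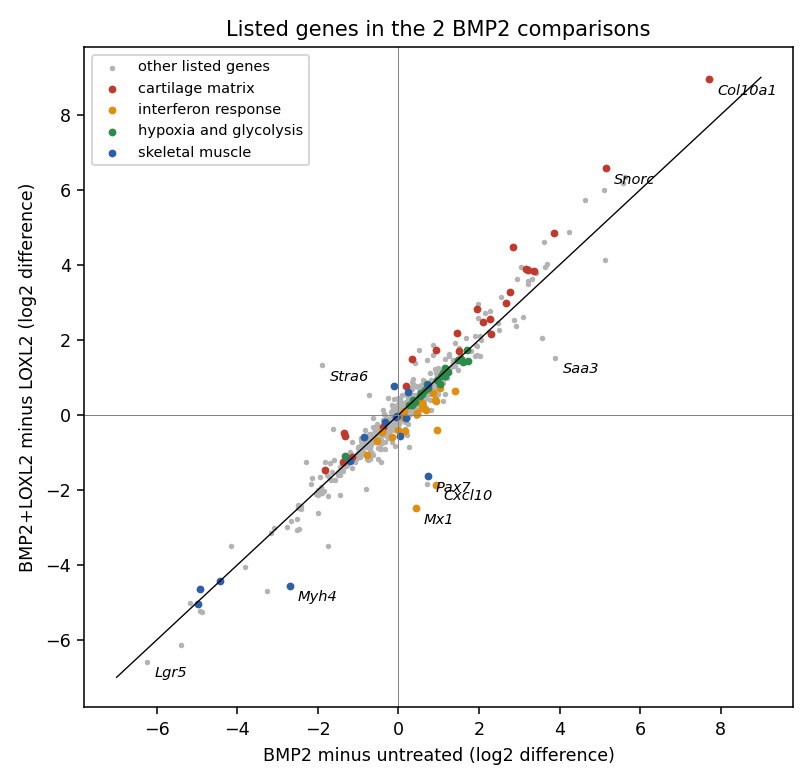
Log2 difference of BMP2 plus LOXL2 against LOXL2 (vertical axis) and of BMP2 against untreated (horizontal axis) for the listed genes measured on the first pair; 4 lists are coloured, and the line marks equal differences. Cartilage matrix genes lie mostly above the line, with Snorc at 6.58 and 5.15, and interferon response genes below it, with Mx1 at -2.48 and 0.43.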

How the data were processed

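Expression was measured on single-colour Agilent arrays, 1 per treatment, from 100 ng of Cy3-labelled RNA. Per the file headers, the deposited spot intensity is the processed signal of Feature Extraction (version 10.7.3.1 in the submitters' processing notes), made by the authors with background subtraction and detrending within the array. Probe positions in the files are on mm9; exons and UTRs were not analysed here. From the files, log2 of the processed signal was taken, less the array's 75th percentile of non-control spots. Outlier spots (137 and 144) were left out, spots of a probe were averaged, and probes well above background on at least 1 array of the pair were kept.

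The kept probe of highest mean level on all 4 arrays represented its gene. Names followed a RefSeq table (GRCm38.p6), which held the accessions of 26864 of 55681 probes; the others kept the file's name. A difference is BMP2 plus LOXL2 minus LOXL2; at least 2-fold means 1 log2 unit or more. With 1 sample a group there is no test, p-value or group error, and the number of arrays limits the precision. The threshold step was tested on simulated data with the same small noise at every signal and differences planted only in genes above the median level. That simulation does not cover dim genes.

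The genes named are, in each direction, the 15 with the largest differences on all of at least 2 probes, the 8 largest bounds, the 5 largest single-probe differences, list members past 2-fold, defining members of each list, up to 6 genes whose probes all differ between the pairs and genes with opposed probes; not every one is printed. Genes with identifiers only are given as counts. Members and lists were chosen with earlier results of these data known. Python 3.11.15 (pandas 2.3.3, numpy 2.4.6, matplotlib 3.10.9) and R 4.3.3 with limma 3.58.1 were used. Alternatives were other scalings, background correction, filters, probe rules, thresholds and the deposited table of 1 intensity per probe.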

Additional observations from a re-analysis of the deposited data

Results flagged for a closer look

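For 9 of 231 named genes past 2-fold under LOXL2, the difference without LOXL2 had the opposite sign. Some named genes were chosen for differing between the pairs, so this count is not a share over all genes. Of all 1999 genes past 2-fold, 41 were at least 2-fold the opposite way without LOXL2, a stricter criterion. Each direction rests on 1 pair of arrays, and the difference between the pairs was not tested. Where a probe was below background its log2 value is not a measured size, and only the fold bound is.

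Mx1 and Cxcl10 are genes that interferon induces. Mx1 gave -2.485 under LOXL2 and 0.43 without it, with a signal of 44.0 untreated, 95.8 with LOXL2, 60.7 with BMP2 and 17.6 with both. Cxcl10 gave -1.868 and 0.92, with signals of 360.1, 533, 696 and 149.8 in that order. In both genes the array with both proteins was the lowest of the 4.

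For 3 genes the LOXL2 array stood above the other 3. Serpina5 gave -6.3686 and 2.53, with signals of 3.27, 281, 19.3 and 3.49, and was at least 19.8-fold lower under LOXL2. Tac4, a tachykinin, gave -5.3826 and 2.96, with signals of 3.28, 142, 26.0 and 3.5, a bound of 10-fold. E230016K23Rik gave -5.4819 and 0.65, with signals of 3.02, 138, 4.83 and 3.18, a bound of 9.72-fold. All 3 were below background on the untreated array and with both proteins, so their values without LOXL2 have no measured size, and each was read by a single spot per array.

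The other four were below background on 1 array of the LOXL2 pair and on both arrays without LOXL2, and none reaches 2-fold by its bound under LOXL2. Fam227b gave 2.5283 under LOXL2 and -0.79 without it. Pitx1 gave -1.8394 and 0.70, Pax7 gave -1.643 and 0.73, and Stra6, a receptor of retinol-binding protein, gave 1.3163 and -1.90.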

How the results depend on the processing

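The counts of 2-fold genes (876 higher, 1123 lower, 205 with all of several probes one way) depended on the treatment of dim probes and on the threshold. With normexp background correction at an offset of 50 they were 358, 396 and 77. Among genes above background on both arrays they were 553, 623 and 145, and with no filter 1434, 1821 and 232. At 1.5-fold they were 1989, 2333 and 485, and at 3-fold 425, 538 and 75. Under median centring, quantile normalization, a filter on 2 of the 4 arrays, the median over a gene's probes, outlier spots kept and the deposited value table, each count stayed within 1.5 times of the above. No named gene past 2-fold took the opposite sign under any alternative run. Of 231 such genes, normexp put 47 under 2-fold, median centring 10 (among them Acta2, Tagln, Mgp, Nkd2, Fgf18 and Adamts2) and quantile normalization 4 (Pgk1, Eno2, Slc3a2 and Pdia4). Signal over background limits the dim genes. No paired analysis was possible because each treatment has 1 array, and for the same reason no replicate could be left out.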

Other observations

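Some probes read a signal on a single array of the 4, and they were looked at after their values were seen. With a signal of 100 or more, 14 probes were well above background on the untreated array alone, 6 on the LOXL2 array alone, 7 on the BMP2 array alone and 7 on the array with both proteins alone. Without the minimum of 100, the counts of such probes were 703 for LOXL2, 535 untreated, 473 for both proteins and 353 for BMP2. Single-array detection was thus found on every array. Of genes at least 2-fold lower with BMP2 under LOXL2, 198 were detected on the LOXL2 array alone. Of genes at least 2-fold higher, 185 were detected on the array with both proteins alone. Ppp1r1c is one of these: its representing probe read 3.11 untreated, 2.89 with LOXL2, 3.26 with BMP2 and 467 with both, and its other 2 probes were below background on all 4 arrays. The second highest difference of the pair, 7.71, belongs to 0610037L13Rik, on 1 spot that read 24843 with both proteins and 112, 116 and 107.3 on the untreated, LOXL2 and BMP2 arrays. A second probe of 0610037L13Rik differed by 0.29 and the remaining probe was below background on all arrays.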
